A study of Mus musculus with 16 samples.

Results

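The genes that set liver endothelium apart from its neighbours were described from RNA of ECs (endothelial cells), HSCs (hepatic stellate cells), KCs (Kupffer cells) and hepatocytes (HEP) of unchallenged adult mouse liver. A gene was called EC-specific when its mean CPM (a gene's reads as a share of all gene reads of the library, scaled alike in all libraries) over the 4 EC libraries was above 0 and at least 4 times the highest of the 3 means of the other cell types, each over 4 libraries. This rule took 2735 of 47729 genes. Most of them were close to silent, since 1938 had a mean under 1 CPM in ECs and 1395 had no read in any of the 12 other libraries, with a median of 0.0348 CPM in ECs and at most 4.25. The description therefore turns on the 436 EC-specific genes with at least 10 CPM in ECs. By the same rule and the same minimum, 560 genes were specific to HSCs, 552 to KCs and 818 to hepatocytes.

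Each cell type was sequenced in 4 libraries, 2 labelled WT and 2 labelled KO. Mice labelled KO carried Zeb2 with exon 7 flanked by loxP sites, the tamoxifen-inducible Cdh5-CreERT2 driver, which is active in endothelium, and an R26R eGFP reporter. Controls were littermates without Cre, and all mice received tamoxifen (2 mg per day for 5 days). By default in the methods the mice were males of 8 weeks and RNA was measured 2 weeks after tamoxifen, and the labels give neither. ECs were sorted with the pan-endothelial antibody Meca32 among cells without vitamin A fluorescence, while KCs were sorted by F4/80 and no F4/80 gate is given for ECs, so that Plvap, which encodes the Meca32 antigen, took part in the choice of the cells. The 4 cell types were isolated from a liver at the same time, but the labels do not say which libraries came from the same liver or from pooled livers. Consecutive title numbers (38, 39 and 40, all WT) may mark 1 liver, which could not be checked, and p-values measure the spread between these libraries, which may be technical.

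Liver sinusoids are lined by endothelial cells that lack a continuous basement membrane, are perforated by fenestrae and clear macromolecules from blood through scavenger receptors. They form their own vascular signals, such as Wnt and BMP ligands, which act on hepatocytes and stellate cells. Like other blood vessels, they depend on VEGF and angiopoietin receptors and on transcription factors of the ETS, SOX, GATA and KLF families.

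The libraries held 12872706 to 15690506 gene reads, so that 3 counts, taken as the smallest level that can be shown, corresponded to between 0.191 and 0.233 CPM (counting error only). TMM scaling factors, which correct for RNA composition, were 1.34 to 1.47 in ECs and 0.497 to 0.588 in hepatocytes. Without TMM the median log2 difference of all tested genes between ECs and the mean of the other cell types was 0.72, against 0.09 with it. Zeb2, the targeted gene, had 106 and 106 CPM in the EC libraries labelled WT and 199 and 130 in those labelled KO. The count, taken over all exons, was thus not lower under the KO label, and groups are called by their labels. Hepatocyte RNA was unequal among the EC libraries. The 12 hepatocyte markers summed to 11.1% and 22.7% of their hepatocyte level in WT libraries 34 and 38, and to 2.63% and 1.89% in KO libraries 6 and 46. KC markers reached 1.05% to 2.36% of their own level and HSC markers 0.705% to 1.98%.

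The promoters of 6 genes are printed because their transcripts carry the pattern described below: Aqp1 and Clec4g had the highest EC levels per kilobase among EC-specific genes, Stab2 and Kdr are defining markers, Tie1 is a pan-endothelial receptor, and Cd34 differed between genotype labels. Each runs from 250 bases before to 50 bases after the RefSeq start (GRCm38.p6), 5′ to 3′ on the strand of the gene. They lie at chr6:55336049-55336348 (plus strand, Aqp1), chr8:3720602-3720901 (minus, Clec4g), chr10:87007893-87008192 (minus, Stab2), chr5:75978406-75978705 (minus, Kdr), chr4:118489800-118490099 (minus, Tie1) and chr1:194938571-194938870 (plus, Cd34). Capitals mark AGGAAG and its reverse complement CTTCCT, a form of the site recognised by many ETS factors.
Aqp1: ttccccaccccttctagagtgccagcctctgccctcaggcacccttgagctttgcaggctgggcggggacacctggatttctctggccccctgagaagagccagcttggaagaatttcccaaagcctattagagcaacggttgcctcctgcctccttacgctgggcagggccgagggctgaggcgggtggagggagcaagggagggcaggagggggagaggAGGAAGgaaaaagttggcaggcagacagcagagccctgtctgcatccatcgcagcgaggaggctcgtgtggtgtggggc
Clec4g: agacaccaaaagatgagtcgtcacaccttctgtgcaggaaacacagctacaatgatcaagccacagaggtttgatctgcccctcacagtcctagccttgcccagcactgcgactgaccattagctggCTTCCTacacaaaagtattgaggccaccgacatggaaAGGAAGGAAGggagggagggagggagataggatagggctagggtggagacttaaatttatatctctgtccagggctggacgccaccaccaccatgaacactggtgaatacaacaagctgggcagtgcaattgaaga
Stab2: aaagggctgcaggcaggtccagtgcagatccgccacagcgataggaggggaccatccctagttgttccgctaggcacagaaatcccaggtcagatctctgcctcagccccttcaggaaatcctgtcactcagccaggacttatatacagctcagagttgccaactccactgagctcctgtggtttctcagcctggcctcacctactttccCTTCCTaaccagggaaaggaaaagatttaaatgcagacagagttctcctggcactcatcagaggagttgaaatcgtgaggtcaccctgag
Kdr: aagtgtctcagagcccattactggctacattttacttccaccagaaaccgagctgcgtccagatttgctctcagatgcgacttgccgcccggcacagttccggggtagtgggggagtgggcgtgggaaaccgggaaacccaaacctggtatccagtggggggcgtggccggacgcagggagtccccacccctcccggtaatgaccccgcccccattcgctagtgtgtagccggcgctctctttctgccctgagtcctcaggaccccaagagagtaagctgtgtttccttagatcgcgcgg
Tie1: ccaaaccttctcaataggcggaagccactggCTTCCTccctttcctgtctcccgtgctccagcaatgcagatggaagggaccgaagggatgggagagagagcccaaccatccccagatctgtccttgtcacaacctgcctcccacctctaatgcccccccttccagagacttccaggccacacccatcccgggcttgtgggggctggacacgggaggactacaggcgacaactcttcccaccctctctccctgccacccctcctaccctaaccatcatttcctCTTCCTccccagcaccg
Cd34: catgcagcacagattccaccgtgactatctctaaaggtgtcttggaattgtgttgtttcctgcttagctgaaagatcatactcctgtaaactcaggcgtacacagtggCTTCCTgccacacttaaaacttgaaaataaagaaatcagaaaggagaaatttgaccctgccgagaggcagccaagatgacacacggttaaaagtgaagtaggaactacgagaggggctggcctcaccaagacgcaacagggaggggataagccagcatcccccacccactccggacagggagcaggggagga
AGGAAG or CTTCCT was found in 5 of these 6 windows, with Kdr as the exception, and in 35.4% of all 32851 RefSeq promoters of this length. The shorter ETS core GGAA was not marked or counted, and the Kdr window holds it. The 2 AGGAAG matches of Clec4g overlap. AGATAA, a form of the site bound by GATA factors, or its reverse complement TTATCT was in 0 of the 6 windows and in 11.2% of all promoters. Other forms were not searched, and AGATAG stands in the Clec4g window and, as CTATCT, in that of Cd34. By identifier or symbol, 303 of the 436 genes (69.5%) matched a promoter, so that a comparison of motifs over the whole group would be void. A match is a run of letters and was not tested for binding. Sequences were not given here for Gata4, Gpr182, Dnase1l3, Oit3, Sox18 and Cdh5.

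The markers of liver endothelium stood out in every EC library. Stab2, a scavenger receptor for hyaluronan, had 3743 and 3988 CPM in the WT EC libraries and 4368 and 3913 in the KO libraries, while the 12 other libraries had between 33.0 and 392 (median 76.0). Clec4g, a C-type lectin of sinusoidal cells, had 7017, 5417, 9625 and 10114 CPM in the same order, against 26.6 to 286 (median 121) elsewhere. Kdr, the main VEGF receptor, had 2487, 1943, 2028 and 1633 CPM, against 1.48 to 122 (median 27.8). None of these 3 genes overlapped between ECs and the other libraries. The same held for 426 of the 436 EC-specific genes, and the rule itself favours it. The share over all genes was not counted. Gata4, a transcription factor of sinusoidal endothelium, did not meet the rule: its 551, 359, 354 and 490 CPM in ECs were 2.84 times the HSC mean of 154 ± 41.2 (SD, n = 4). KCs and hepatocytes had 20.1 ± 12.1 and 10.4 ± 5.94 CPM of Gata4. In ECs, Gata4 was still above HSCs, by 1.27 on the log2 scale (SE 0.43, adjusted p = 0.0459 by edgeR's quasi-likelihood test).

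**Figure D1:**
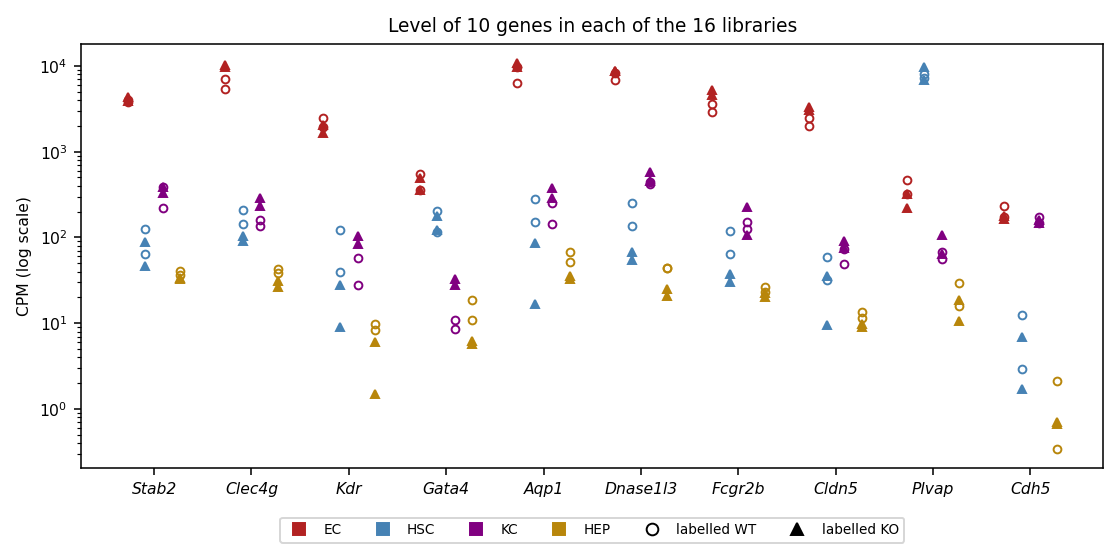
CPM on a log axis of 10 genes in each of the 16 libraries, coloured by cell type, with open circles for libraries labelled WT and filled triangles for those labelled KO. Stab2, Clec4g, Kdr, Aqp1, Dnase1l3, Fcgr2b and Cldn5 are higher in all 4 EC libraries than in any other, Gata4 is highest in EC with HSC next, Plvap is highest in HSC (mean 7897), and the Cdh5 points of EC and KC lie close together (means 187 and 157). For the EC-specific genes shown, the rule favours a gap between EC and the other libraries.

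The 436 genes together with the rarer EC-specific genes took 14.6% of the EC reads, and 0.855%, 0.882% and 0.274% of the HSC, KC and hepatocyte reads. The highest EC level was that of Aqp1, a water channel, with 9762, 6345, 9776 and 10760 CPM in WT libraries 34 and 38 and KO libraries 6 and 46, and between 16.9 and 378 elsewhere. Dnase1l3, a secreted nuclease, had 8121 ± 883 CPM in ECs (SD, n = 4) and at most 574 in another library. Fcgr2b, the Fc receptor through which sinusoidal cells take up immune complexes, had 4093 ± 1051, with at most 226 elsewhere. The atypical receptor gene Gpr182 had 3650 ± 750, against at most 149. The others among the 12 highest were Plpp3 (lipid phosphate phosphatase), Nrp1 (VEGF co-receptor), Sgk1 (a kinase), Tinagl1 (matrix protein), Cldn5 (tight junction claudin) and Oit3, with means between 2668 and 3565 CPM. Among EC-specific genes, per kilobase of annotated exons, Aqp1 (3487 CPM per kb) and Clec4g (3267) led, followed by Cldn5 (1917), Dnase1l3 (1577) and Plpp1 (1137), the last being a relative of Plpp3.

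Another picture emerged from the ratio to the next cell type. Its median over the 436 genes was 10.5, with 182 genes between 4-fold and 8-fold, 101 up to 16-fold, 115 up to 32-fold and 38 above that. The next-highest cell type was KC for 217 genes, HSC for 187 and hepatocytes for 32. The highest ratios were those of genes at low levels. Flrt1, a membrane protein of the FLRT family, had 32.3 ± 4.69 CPM in ECs, 97.6 times its KC mean of 0.331. Tal1, a blood and endothelial transcription factor, had 17.5, 21.8, 13.0 and 13.4 CPM in ECs and at most 0.384 in any other library. Sox18 had 108, 270, 382 and 247 CPM against at most 5.46. The ratio was 58.8 for Ush1g, 56.7 for Stox2, 53.6 for Cyp26b1, which degrades retinoic acid, 49.0 for Mamstr, 48.9 for Chst7, 48.1 for the antisense-named Plet1os, 48.1 for Exoc3l2 and 47.3 for Col13a1. Btnl9, with a ratio of 77.9, had 0, 1.01, 3.06 and 226 CPM in the 4 EC libraries, and KO library 46 alone set its mean. Just inside the threshold lay Cntfr (4.01), Ggta1 (4.03) and Smad6 (4.04), and just outside it Zmynd15 (3.99), Gm16340 (3.98) and Clec14a (3.98), a pan-endothelial lectin with 1288 ± 444 CPM in ECs and 324 ± 30.4 in HSCs.

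**Figure D2:**
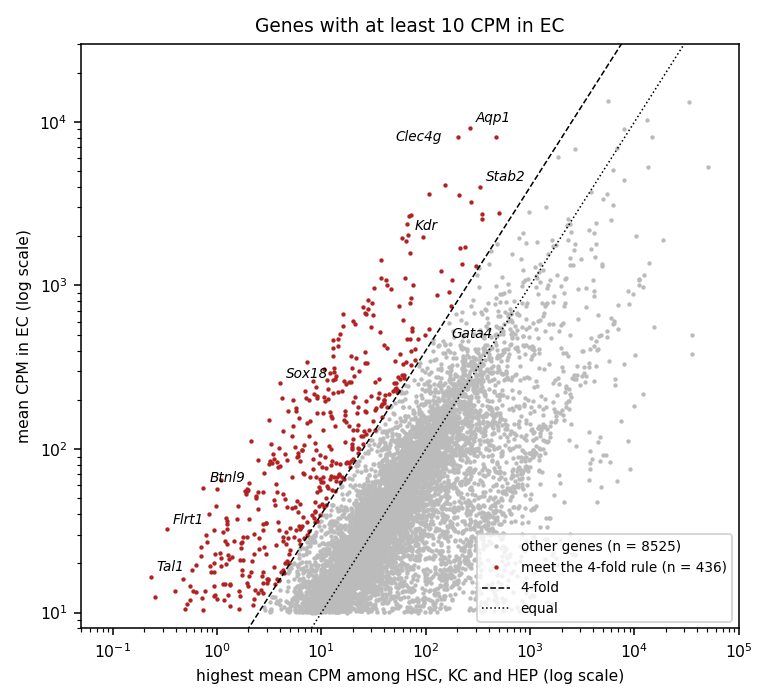
Mean CPM in EC (vertical) against the highest of the HSC, KC and HEP means (horizontal), both on log axes, for the 8961 genes with at least 10 CPM in EC. The 436 red points meet the 4-fold rule (dashed line) and the 8525 grey points do not. Aqp1 and Clec4g lie at the top, Tal1 and Flrt1 at the far left, and Gata4 between the dashed and dotted (equal) lines.

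Separation held library by library for most of these genes, as a description of the values that chose them. For 426 of the 436, the lowest EC library was above the highest of the 12 others, and for 230 it was at least 4 times as high. A gap of 4 times by itself meets the rule. How many of all 8961 genes with at least 10 CPM in ECs were without overlap was not counted. Of the 889 EC-specific genes that passed the filter on low counts, 862 were called higher in ECs than the mean of the other cell types (23.4% of the 17214 genes tested were) and 505 were called higher than each of them (4.51%). These calls use the contrast of the rule and lend it no support. Over all genes tested, 4029 were called higher and 2714 lower, and without TMM 7462 and 971. EC-specific genes were 5.16% of the genes tested, and 15.8% of the genes tested were called lower in ECs. The SD over the 4 EC libraries had a median of 24.5% of the mean among the 436 genes and 21.7% among the other 8525 genes with at least 10 CPM in ECs. By annotation, 412 were protein coding, 9 were transcripts still to be tested by experiment, 7 were antisense and 4 lincRNA. Gene symbols without a given name numbered 20. The highest of these were 1810011O10Rik (236 ± 101 CPM), 4931406P16Rik (84.7 ± 17.0), C530043K16Rik (65.3 ± 17.4), Gm15609 (31.2 ± 12.9) and A430105I19Rik (29.1 ± 8.12).

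EC-specific RNA was not absent from the other libraries. At the median gene, KC libraries had 3.52% to 7.01% of the EC level, HSC libraries 4.04% to 7.72% and hepatocyte libraries 0.509% to 0.818%. These shares rest on CPM without TMM, whose factors differ most between ECs and hepatocytes, and the rule itself kept them low. Transcripts of the cells themselves and of ECs carried along cannot be told apart here. In bulk samples fewer cells of a type cannot be told apart from less RNA per cell. KC libraries labelled KO, with 7.01% and 5.16%, were both above those labelled WT, with 3.52% and 4.57%. The order was the opposite in HSCs, with 7.72% and 4.82% in WT and 4.51% and 4.04% in KO, and in hepatocytes, with 0.818% and 0.722% in WT and 0.713% and 0.509% in KO.

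**Figure D3:**
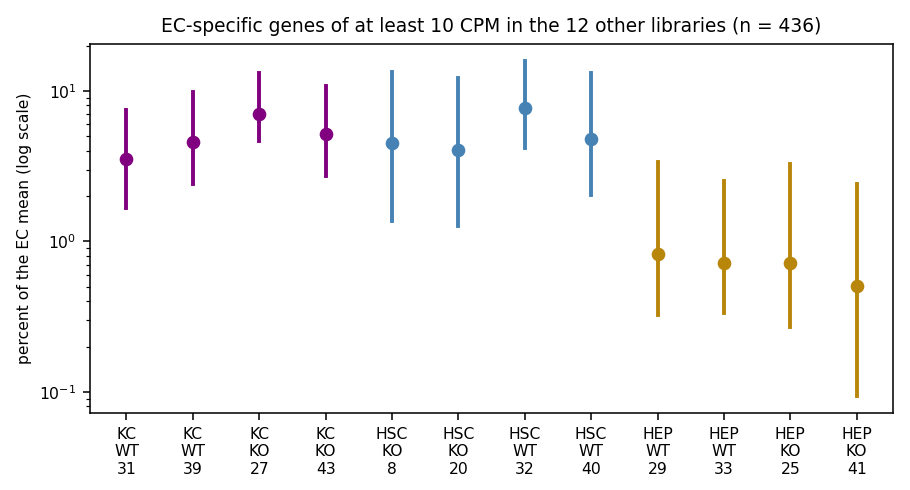
Level of the 436 genes in each of the 12 other libraries, as percent of the EC mean on a log axis; points are medians over genes and bars run from the lower to the upper quartile. KC and HSC libraries have medians between 3.52% and 7.72%, and hepatocyte medians stay under 1%, in CPM without TMM.

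Among 32 transcription factors of endothelium, 13 were EC-specific, 27 were called higher than the mean of the other cell types and 16 higher than each. Of all genes tested, 5.16% were EC-specific, 23.4% were called higher than the mean and 4.51% higher than each. The same shares apply to each list that follows, and the calls use the contrast of the rule. The 3 SOXF factors, which specify endothelium, were among the EC-specific ones, with Sox7 at 291 ± 81.3 CPM, Sox18 at 252 ± 112 and Sox17 at 200 ± 47.9. The ETS factors differed. Elk3 (281 ± 36.2 CPM) and Erg (81.5 ± 21.2) were EC-specific, at 13.7 and 25.7 times the next cell type, whereas Fli1, Ets1 and Ets2 were not. Maf, which governs sinusoidal differentiation, had 234 ± 45.8 CPM and 50.5 ± 17.5 in KCs. The shear-stress factor Klf2 (523.5 ± 210 CPM) and Tcf4 (501 ± 62.9) were 2.89 and 2.19 times the next cell type and fell short of the rule. Zeb1, looked up after the values were known as the relative of the targeted gene, had 222 ± 37.2 CPM in ECs and 35.7 ± 3.95 in HSCs, a ratio of 6.20. Zeb2 itself was highest in HSCs (444 ± 62.7), then in KCs (283 ± 34.3) and ECs (135 ± 43.9), and low in hepatocytes (2.16 ± 1.43). Hhex and Prox1 had their highest mean in hepatocytes (90.7 and 37.4 CPM) and Foxf1 in HSCs (87.1 CPM).

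Of the 21 scavenger and endocytic receptors, 7 were EC-specific, 15 were called higher and 3 lower than the mean. Of all genes tested, 5.16% were EC-specific, 23.4% called higher and 15.8% lower. The EC-specific receptors were Clec4g, Fcgr2b, Stab2, Stab1, Lyve1, Cd93 and Cav1. Stab1 had 1686 ± 399 CPM in ECs and 213 ± 56.7 in KCs, and Lyve1, the hyaluronan receptor, 607 ± 193 and 19.9 ± 12.4. Others were shared with KCs, the macrophages of the sinusoid. Mrc1, the mannose receptor, had 1938 ± 310 CPM in ECs and 785 ± 161 in KCs, while Msr1 had 409 ± 74.7 in ECs and 747 ± 39.4 in KCs. Fcgrt, the neonatal Fc receptor, was high in ECs (2089 ± 359) and present in each other cell type (295 to 853 on average). Plvap, the antigen of the sort, had 333 ± 103 CPM in ECs and 7897 ± 1244 in HSCs, a log2 difference of -4.82 (SE 0.40, adjusted p = 1.055e-06 by edgeR). It was chosen after its values were seen, as was Cdh5, the gene whose promoter drives Cre. Cdh5 had 187 ± 31.8 CPM in ECs and 157 ± 11.4 in KCs (log2 difference -0.08, SE 0.46, adjusted p = 0.93 by edgeR, negative because the fit uses TMM scaling and the means do not), and 5.99 ± 4.79 in HSCs.

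VEGF receptors were specific and VEGF ligands were not. Of 11 genes, 6 were EC-specific, namely Kdr, Flt1, Flt4, Nrp1, Nrp2 and the semaphorin receptor Plxnd1. Of the 11, 7 were called higher than the mean, where 23.4% of all genes tested were. Among the 7 was the ligand Vegfc (log2 difference 1.79, SE 0.60, adjusted p = 0.028 by edgeR), though its mean was higher in HSCs. Nrp1 had 3227 ± 683 CPM in ECs, Flt4 812 ± 124 and Flt1, the decoy receptor, 683 ± 70.5. Vegfc had 27.6 ± 7.86 CPM in ECs and 54.8 ± 6.10 in HSCs, and Vegfb had 6.05 ± 1.40 in ECs. In the angiopoietin and Tie axis, 4 of 6 genes were specific: Ptprb, a phosphatase of Tek (1872 ± 325 CPM), Tie1 (1106 ± 182), Tek (362 ± 143) and the ligand Angpt2 (90.0 ± 25.5). Angpt1, the activating ligand, was in HSCs (15.8 ± 8.61 CPM against 0.349 ± 0.528 in ECs), and Angptl2 had 1917 ± 183 CPM there. Of the VEGF ligands, Vegfb had its highest mean in ECs, with 3.76 ± 0.847 CPM in HSCs, and Vegfa was near 1 CPM in each cell type (0.837 to 1.31 on average).

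The Notch axis had 3 EC-specific genes of 11, the ligands Dll4 (523 ± 111 CPM) and Dll1 (61.4 ± 15.2) and the receptor Notch4 (49.7 ± 5.65), with 5 called higher. Beside the counts of this paragraph, 5.16% of all genes tested were EC-specific, 23.4% called higher and 15.8% lower. Notch1 (283 ± 48.0 in ECs, 170 ± 69.6 in HSCs) and the target Hes1 (242 ± 21.2 and 187 ± 78.5) were shared. In the BMP and TGF-beta axis, 3 of 17 were specific, 12 were called higher and 3 lower. The specific ones were the ligands Bmp2 (1233 ± 219 CPM against 140 ± 66.2 in HSCs) and Bmp6 (43.0 ± 4.24), which control hepatocyte hepcidin, and the inhibitor Smad6. Eng, the co-receptor endoglin, was abundant in ECs (6792 ± 1811) and in HSCs (2675 ± 296), and the target Id3 had a higher mean in HSCs (2405 ± 664) than in ECs (1338 ± 577.5).

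Among 15 angiocrine factors 7 were EC-specific, 12 were called higher than the mean, 1 was called lower and 6 were higher than each. Of all genes tested, 5.16% were EC-specific, 23.4% called higher, 15.8% lower and 4.51% higher than each. Wnt2, the ligand that acts on pericentral hepatocytes, had 265, 173, 211 and 218 CPM in the 4 EC libraries and at most 22.3 elsewhere. Wnt9b was low (7.66 ± 3.78 CPM). Kitl had 76.4 ± 33.6 CPM. Igfbp7 and Ltbp4 were shared with HSCs (1442 ± 446.5 and 3054 ± 1576, 344 ± 87.2 and 283 ± 102), and Hgf, Rspo3 and Cxcl12 had their highest mean in HSCs (688, 351 and 8666 CPM). Of 9 coagulation proteins 2 were specific: F8, coagulation factor VIII (641, 604, 794 and 650 CPM, at most 25.4 elsewhere), and Tfpi, the tissue factor inhibitor (469 ± 102). Thbd (228 ± 118) and Pros1 (431 ± 141) were shared with HSCs, and Vwf had only 9.26 ± 6.57 CPM.

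Of 18 junction and adhesion molecules, 9 were EC-specific and 14 called higher, with Cldn5 (2714 ± 602 CPM), Esam (1712 ± 400.5), Pecam1 (880 ± 153) and Emcn (461 ± 178) the highest of the specific ones. Of all genes tested, 5.16% were EC-specific and 23.4% called higher. Icam1 had a mean of 1695 ± 714 in KCs and 860 ± 351 in ECs, and F11r had 434 ± 81.7 in ECs and 151 ± 21.1 in hepatocytes. Receptors and vasoactive enzymes gave 6 of 15, among them Gpr182, the adhesion receptors Adgrf5 (662 ± 121) and Adgrl4 (579.5 ± 160), and Ramp2 (432.5 ± 113), the partner of the adrenomedullin receptor. F2r and Ece1 had means of 418 and 562 CPM in HSCs, against 347 and 451 in ECs. The lymphatic list gave 2 of 7, Flt4 and Lyve1, and among its other members ECs had Prox1 at 21.2 ± 7.74 and Reln at 14.5 ± 9.36 CPM.

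Zonated genes were found on either side. Of the 9 pericentral sinusoidal genes 5 were EC-specific, with Fabp4 at 390 ± 193 CPM, Wnt2, Cdh13 at 203 ± 73.6 and Kit at 145 ± 27.4. Of the 9 periportal genes 4 were, with Dll4, Adam23 at 294 ± 59.6, Efnb2 at 29.0 ± 3.83 and Ntn4 at 8.59 ± 5.48. Ptgs1, Msr1 and Il1a had higher means in KCs (1185, 747 and 2198 CPM) than in ECs (606.5, 409 and 1114). Genes listed as markers of continuous capillaries gave 8 of 15, among them Cd300lg (1426 ± 253 CPM), Pecam1, Emcn and Lama4 (310 ± 92.8), while Sparc had 5101 ± 871 in ECs and 6217 ± 1844 in HSCs, and Col4a2 had 322 ± 27.8 and 438 ± 114. This list and the others were written with results of these data known.

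**Figure D4:**
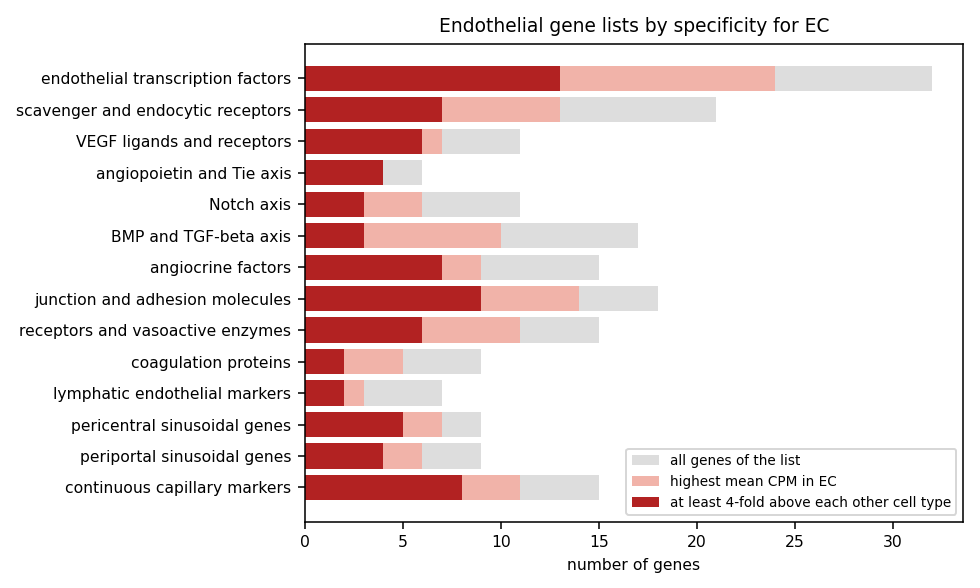
Number of genes in each of 14 endothelial lists (grey), of those with their highest mean CPM in EC (pale) and of those at least 4-fold above each other cell type (red). The red share is 13 of 32 for transcription factors, 6 of 11 for VEGF genes and 4 of 6 for the Tie axis, against 3 of 17 for the BMP and TGF-beta axis.

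Of the lists for other cells, the platelet list alone held an EC-specific gene. None of the 12 HSC, 12 KC or 12 hepatocyte markers met the rule. Of the T and NK cell markers, 0 of 9 did, yet all 9 had their highest mean in ECs. Of these 9, 8 were called higher than the mean of the other cell types (23.4% of all genes tested were) and 0 higher than each. Their summed level was 85.1 and 141 CPM in the WT EC libraries and 40.5 and 32.0 in the KO libraries, against 32.7 to 49.4 in KCs. Of 8 B and plasma cell markers 7 were called higher than the mean and 0 higher than each, and none met the rule. Their sum reached 789 CPM in WT library 38, where Ighm alone had 513, and 170 to 267 in the other EC libraries, against 103 to 228 in KCs. Gp1ba, a platelet glycoprotein, was that gene (4.46 ± 1.97 CPM against 0.198 in KCs), and 68 immunoglobulin genes were EC-specific, none of which reached 10 CPM. Other lymphocyte genes outside the lists, looked up after their values were seen, did meet the rule: Fcer2a, the low-affinity IgE receptor of B cells, with 20.2 ± 11.5 CPM in ECs and 4.71 ± 2.47 in KCs, and the T cell co-receptor genes Cd8a (2.59 ± 3.25 and 0.626 ± 0.468) and Cd8b1 (1.73 ± 1.77 and 0.334 ± 0.177). Fcer2a lies beside Clec4g on chromosome 8. Neutrophil, erythroid, plasmacytoid dendritic, biliary, mesothelial and proliferation lists held no EC-specific gene. The part of RNA from blood and immune cells in the EC-specific genes was not tested.

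Some EC-specific genes lay next to each other. Of 592 protein-coding EC-specific genes that passed the filter, 126 had an EC-specific neighbour among the tested protein-coding genes, in 57 runs. The longest run was Ttll7, Adgrl2, Adgrl4, Ifi44 and Gipc2 on chromosome 3 (146852367 to 152166230 of GRCm38), and Hoxb7, Hoxb6 and Hoxb5 formed another on chromosome 11. Neighbours may share reads where they overlap, and no comparison with other genes was made.

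The difference between genotype labels inside ECs was not used by the rule, but the EC mean over both labels was. A gene high under a single label could thus enter, as Cd34 and Rgcc, both called below, missed the rule in the WT libraries alone. The part of this in the counts that follow was not tested. Of 870 EC-specific genes tested, 6 were called higher in the libraries labelled KO and 0 lower (edgeR's quasi-likelihood test, adjusted over 14631 genes), where 0.116% and 1.97% of all genes were called. At an unadjusted p under 0.05, 94 were higher and 46 lower, or 10.8% and 5.29% of those tested, beside 4.86% and 10.1% of all genes. DESeq2 called 45 higher and 16 lower. For the 435 tested genes with at least 10 CPM in ECs the median log2 difference was 0.16, against 0.04 for all genes at that level, and 269 moved by less than 0.5. Of the 3 markers that met the rule, none was called. For Stab2 the log2 difference was 0.10 (adjusted p = 0.912 by edgeR), for Kdr -0.28 (adjusted p = 0.699) and for Clec4g 0.67 (adjusted p = 0.409). Other endothelial genes differed without overlap between labels but missed the adjusted threshold. The share of all genes that do not overlap between labels was not taken. Lyve1 had 838 and 692 CPM in WT and 465 and 432 in KO (log2 difference -0.77, SE 0.24, adjusted p = 0.211 by edgeR). Emcn had 352 and 269 in WT and 611 and 614 in KO (0.98, SE 0.25, adjusted p = 0.14 by edgeR), and Fabp4 had 238 and 249 in WT and 423 and 649 in KO (1.15, SE 0.30, adjusted p = 0.142 by edgeR).

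The called genes were low in both WT libraries. Cd34, a sialomucin of continuous capillaries, had 71.3 and 61.3 CPM in the WT libraries and 231 and 194 in the KO libraries, a log2 difference of 1.67 (SE 0.22, adjusted p = 0.0293 by edgeR). Rgcc, a cell cycle regulator, had 13.8 and 13.7 against 49.0 and 66.8 CPM (2.08 on the log2 scale, SE 0.29, adjusted p = 0.03 by edgeR). Ifitm10 had 24.8 and 16.9 against 88.2 and 121 CPM (2.33, SE 0.32), and Igsf23 had 2.44 and 3.88 against 20.9 and 30.9 (3.05, SE 0.44). Capn3, a calpain protease, had 20.3 and 21.8 against 71.4 and 80.4 (1.85, SE 0.24), and N4bp3 had 14.3 and 18.6 against 47.4 and 49.1 (1.56, SE 0.27). The adjusted p of these 4 lay between 0.029 and 0.0455. WT and KO libraries did not overlap for any of the 6, but the genes were chosen by this difference and the share over all genes was not taken. In 1 fit over all 16 libraries 0 of the 6 were called, with adjusted p between 0.117 and 0.673, without KO library 46 none was called (adjusted p 0.0762 to 0.199), and without KO library 6 Ifitm10 alone kept its call. Cd34 and Rgcc belong to the continuous capillary list, where 7 of 15 genes were higher and 1 lower at an unadjusted p under 0.05, with a median log2 difference of 0.43. Of all genes, 4.86% were higher and 10.1% lower at that p, and the lists were written with results of these data known. In the fit over the 4 EC libraries, 12 of 12 hepatocyte markers were called lower under the KO label, where 1.97% of all genes were. At an unadjusted p under 0.05, 7 of 12 KC markers were higher and 10 of 12 HSC markers lower. Of the T and NK and of the B cell markers, 6 of 9 and 5 of 8 were lower at that p. None of the 12 hepatocyte, 12 HSC and 12 KC markers was at 0 in any EC library, and the hepatocyte sum was 2294 to 3188 CPM under the KO label and 13445 to 27519 in WT. The part of these RNAs in the label differences was not tested.

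**Figure D5:**
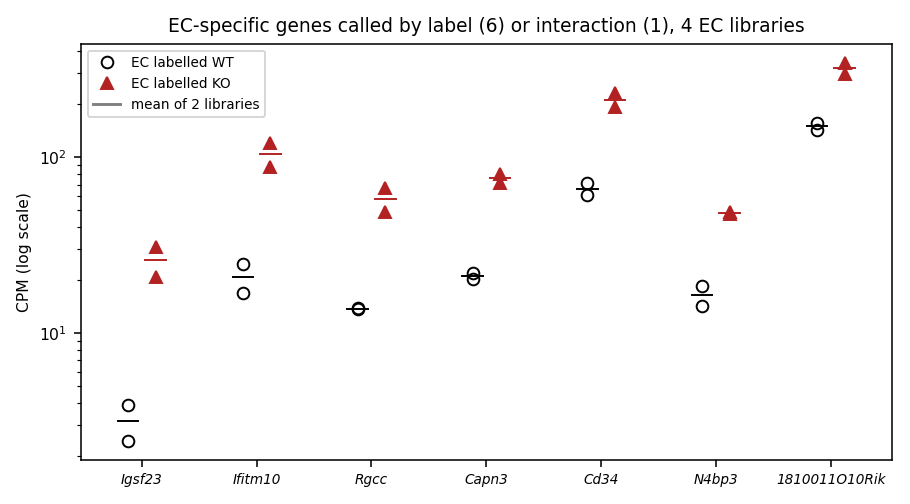
CPM on a log axis in the 4 EC libraries, with open circles for WT, filled triangles for KO and bars for the mean of 2 libraries, for the 6 EC-specific genes called between labels and 1810011O10Rik, called by the interaction. In each gene both KO libraries are above both WT libraries, which the choice of the genes by these tests favours.

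A difference particular to ECs was tested as the interaction of label and cell type. Among EC-specific genes 1 of 889 passed, 1810011O10Rik, where 0.337% of all genes did, and 38 passed at an unadjusted p under 0.05, where 8.53% of all genes did. 1810011O10Rik had 143 and 158 CPM in the WT EC libraries and 345 and 297 in the KO libraries. In KCs the WT libraries had 77.5 ± 9.60 CPM and the KO libraries 26.3 ± 3.27 (SD, n = 2), while HSCs had 28.1 ± 2.64 and 23.1 ± 1.72. The interaction was 1.76 on the log2 scale (SE 0.31, adjusted p = 0.0423 by edgeR), and within ECs alone the gene missed the threshold (log2 difference 1.09, SE 0.21, adjusted p = 0.0593). It was called in none of the fits that left out 1 EC library. None of the 6 genes called between labels passed the interaction test.

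Applied to each label alone, the 4-fold rule gave 420 genes in WT and 456 in the KO libraries at 10 CPM or more, and 349 genes met it in all libraries together and in each label. The VEGF, Tie, Notch, coagulation, lymphatic and periportal lists kept their counts in each label. Of the markers of other cells that missed the rule over all libraries, 6 met it in the WT libraries alone. They were the B cell genes Cd79a and Ighm, the NK gene Klrb1c, Epcam of biliary epithelium, Ngp of neutrophils and Siglech of plasmacytoid dendritic cells. In the KO libraries alone none of the 6 met it. The platelet gene Gp1ba met it in each label. The continuous capillary list had 5 EC-specific genes in WT and 9 under the KO label, since Apln, Cd34 and Rgcc missed the rule in WT and Ly6a met it in the KO libraries.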

How the data were processed

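RNA of 4 liver cell types was sequenced in 16 libraries. What the authors deposited were raw counts, as 1 table of reads by Ensembl gene for every library, not normalized. The submitters' processing notes name Trimmomatic 0.32, HISAT2 2.1.0, HTSeq 0.9.1, edgeR and GRCm38. The labels name a stranded TruSeq kit and the series' design text another preparation. The strand setting is not given in the sources used here, so that overlapping and antisense genes are uncertain. The 5 summary lines of each table were left out of all totals. GENCODE M21 (GRCm38) held 99.1% of the 47729 identifiers.

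CPM were taken on the reads on genes. Counts were tested with edgeR 4.0.16 in R 4.3.3 (filterByExpr, TMM, quasi-likelihood F test, Benjamini-Hochberg threshold 0.05), with 1 coefficient per cell type and the genotype label as covariate, and, between labels, over the 4 EC libraries. DESeq2 1.42.0 was an alternative. The fits were tested on simulated data. Replicates differed by more than sampling noise (mean chi-square per gene 32.4 to 119.5). Values were named for the 4 markers and the targeted gene, for up to 4 EC-specific and 2 other genes with the highest EC level in each list, for the 12 highest levels and the 12 highest ratios at 10 CPM or more, for 3 genes on each side of the threshold, for 5 genes without a given name, and for the label and interaction calls. Zeb1, Sox17, Erg, Lyve1, Wnt9b, Vwf, Plvap, Cdh5, Fcer2a, Cd8a, Cd8b1, the other listed genes given beside these and the genes of the closing observations were added after their values were seen. The members, lists and tests were chosen with earlier results of these data known. Of 263 listed genes, 263 were matched, 1 through an older symbol. Plots used matplotlib 3.10.9.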

Additional observations from a re-analysis of the deposited data

Results flagged for a closer look

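In 9 of the 130 genes examined, 1 EC library lay farther from the other 3 than Dixon's 95% limit allows, where chance gives about 1 in 20. KO library 46 stood above the others for Btnl9 (226 CPM against 0 to 3.06) and Bst2 (652 against 347 to 381). WT library 34 stood above them for F2r (549 CPM against 257 to 301), Adam23 (383 against 255 to 270) and Ntn4 (16.7 against 5.35 to 6.91), and below them for Stox2 (46.3 against 59.9 to 61.3). WT library 38, the one with the most hepatocyte RNA, stood above them for Ighm (513 CPM against 91.3 to 142), S100a8 (38.7 against 2.57 to 7.38) and Gp1ba (7.38 against 3.20 to 3.83). None of the 9 had KO library 6 as the distant one. Among EC-specific genes, 1810011O10Rik differed between cell types in its response to the genotype label, with an interaction of 1.76 on the log2 scale.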

How the results depend on the processing

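Genes called higher in ECs than the mean of the other cell types (4029), lower (2714) and higher than each (776) numbered 2211, 1038 and 307 in the WT-labelled libraries alone. In the KO-labelled libraries alone 1806 were lower and 448 higher than each. A coefficient for EC against all 12 other libraries gave 773 and 208, a test for at least 4-fold 838 and 91, and an adjusted p under 0.01 gave 1620 lower. Library totals without TMM, a setting chosen after seeing the data, gave 7462 higher, 971 lower and 1287 higher than each. Leaving out each library gave 3438 to 4275, 1880 to 2734 and 576 to 749. The 4-fold rule took 4554 genes at 2-fold, 797 with at least 1 CPM, 436 with at least 10 CPM, 331 where the lowest EC library was at least 4 times the highest other, and 2279 to 2933 with each library left out. On TMM-normalized CPM it kept 341 of the 436. Between labels, EC-specific genes called higher (6) and lower (0) numbered 45 and 16 by DESeq2, 54 and 34 without the filter, 94 and 46 at an unadjusted p under 0.05, and 0 and 0 in 1 fit over all 16 libraries. With each EC library left out they numbered 0 to 19 and 0 to 4, with 2 higher without KO library 6, 0 without KO library 46 and 19 without WT library 34. Where 1 library of a label is left, its spread is assumed to equal that of the other label. The interaction (1) became 7 by DESeq2, 21 without the filter and 38 at an unadjusted p under 0.05, and 0 to 0 with each EC library left out. The cause of these changes was not tested. No gene named reversed its direction against the other cell types under any alternative while called. No paired analysis was possible because the groups share no replicate number and the labels do not say which libraries came from the same liver.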

Other observations

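The Gimap, atypical chemokine receptor and plexin families were chosen after their values were seen, and Plxnd1 is also in the VEGF list. Of the 8 Gimap genes, GTPases known from lymphocytes, 5 were EC-specific, with Gimap6 at 836 ± 214 CPM in ECs and 71.4 in KCs and Gimap4 at 670 ± 180 and 27.0. Gimap7, at 6.21 CPM, and Gimap3 and Gimap9, 2.57 and 3.29 times the next cell type, were not. Of the 4 atypical chemokine receptors, which bind chemokines without G protein signalling, Ackr1 (716 ± 289 CPM), Ackr2 (170 ± 27.7) and Ackr4 (17.1 ± 8.95) were EC-specific, and Ackr3 was as high in HSCs (16.3 and 15.9 CPM). Of 9 plexins, receptors for semaphorins, 3 were EC-specific, Plxnd1 (529 ± 61.3), Plxnc1 (326 ± 50.1) and Plxna2 (130 ± 28.7), while Plxnb2 was highest in KCs (270 against 99.0) and Plxna1 and Plxnb1 in HSCs (57.9 against 12.2, and 56.6 against 2.93).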
